A study of Rattus norvegicus with 14 samples.

Results

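Collagen genes were described in cultured hippocampal neurons and astrocytes of the rat, and compared between cultures given Allo and cultures given vehicle. A collagen gene was taken as any symbol written as Col, a number, the letter a and a number, whose normalized counts averaged 10 or more in the table of either culture. Of 44 symbols of this form, 40 passed, out of 16308 genes of every kind that passed the same limit. A normalized count is the authors' estimate of the reads on a gene after correction for library size. From the lowest values, 1 read was estimated to be worth 0.842 to 1.142 of it. The cultures came from Sprague Dawley fetuses at embryonic day 18, and all 4 groups were kept in AM, the supplement-reduced medium that stands for an aging environment. Neurons entered AM on day 10 in culture, and after 4 h received 100 nM Allo (allopregnanolone, a steroid that acts on GABA-A receptors) or the ethanol vehicle (Veh) for 16 h, with 4 libraries in each group. Astrocytes were the cells left after mixed glia had been shaken to remove microglia and oligodendrocytes. They spent 24 h in AM, here a medium with charcoal-stripped serum, and a further 24 h with 100 nM Allo or Veh, with 3 libraries in each group. Nothing in the labels says that libraries of a group came from separate cultures, so the p-values measure the spread between libraries, which may be technical.

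Collagens are secreted proteins wound from chains that may be alike or different, and each chain has its own gene. Fibrillar collagens pack into banded fibrils, type IV collagens form the mesh of basement membranes, type VI collagens make beaded filaments beside cells, and FACIT collagens sit on the surface of fibrils. In the brain, fibrillar collagen is known mainly from the meninges and the walls of larger vessels, and type IV collagen from the basement membranes that surround vessels and underlie the pia.

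The labelled cell types were checked against marker genes. In the neuron cultures 5 of the 6 neuron markers were listed, each at a mean of at least 10. These 5 summed to 37488 to 44253 normalized counts, and the remaining marker had no value. But the 6 astrocyte markers summed to 170389 to 231300 and the 6 markers of the oligodendrocyte lineage to 35736 to 42686. In the astrocyte cultures the 6 astrocyte markers summed to 212429 to 226251, and the neuron markers to 3541 to 4312. Of the latter, 5 of 6 were listed and 3 reached a mean of 10, while Nefl and Rbfox3 lay between 0 and 5.0. Markers of fibroblasts and other mesenchymal cells summed to 1397 to 1553 in neuron cultures (8 of 11 at a mean of at least 10) and to 28102 to 28786 in astrocyte cultures (6 of 11). In astrocytes that sum came from Fbln1 (13880 to 14563), Ogn (8482 to 8833), Pdgfrb (3886 to 4229) and Prrx1 (1101 to 1337), whereas Dcn (1.9 to 8.3), Lum (6.5 to 13.9), Tbx18 (0 to 6.9) and Slc6a13 (0 to 5.3) were at or near 0. Markers of pericytes and smooth muscle summed to 12883 to 16823 in neuron cultures and 47686 to 57823 in astrocyte cultures, and the microglial markers to 5.6 to 27.4 and 1111 to 1456. The part that cells of these other kinds play in the collagen levels was not tested. In libraries made from whole cultures, fewer cells of a type and less RNA per cell cannot be told apart. Below, neurons and astrocytes stand for the whole mixed cultures of those names, and no transcript is assigned to a cell type.

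Both cultures held a wide set of collagen transcripts. Of the 40 genes, 37 reached a mean of 10 in neurons and 37 in astrocytes, and 34 did so in both. Col2a1, Col9a1 and Col26a1 passed in neurons alone, and Col7a1, Col17a1 and Col28a1 in astrocytes alone. Col10a1, Col13a1, Col23a1 and Col24a1 stayed below 10 in both. Near the limit, Col6a5 (10.7) and Col2a1 (12.2) were just inside and Col7a1 (4.88) and Col23a1 (3.96) just outside in neurons. In astrocytes Col19a1 (11.6) and Col6a4 (14.8) were just inside and Col2a1 (6.49) and Col26a1 (6.32) just outside. The 40 genes took 0.0982% ± 0.00374 (SD, n = 8) of all normalized counts in neuron libraries and 0.933% ± 0.0335 (SD, n = 6) in astrocyte libraries.

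The make-up of these counts differed between the cultures. Fibrillar genes took 52.0% ± 1.00 of the collagen counts in neurons (SD, n = 8) and 41.6% ± 0.678 in astrocytes (SD, n = 6). Type IV genes took 24.7% ± 0.713 and 16.1% ± 0.243, and FACIT genes 17.9% ± 0.950 and 16.4% ± 0.437. The remaining classes were small in neurons, where type VI genes took 3.08% ± 0.339, multiplexins 1.09% ± 0.184 and the short-chain network genes 0.728% ± 0.157. In astrocytes these same classes took 9.32% ± 0.592, 4.61% ± 0.127 and 11.9% ± 0.317. The ranges of the 2 cultures overlapped for FACIT genes and for no other of these classes. Counts grow with the length of a transcript, and no transcript lengths were used here, so these are shares of reads and not of molecules.

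**Figure D1:**
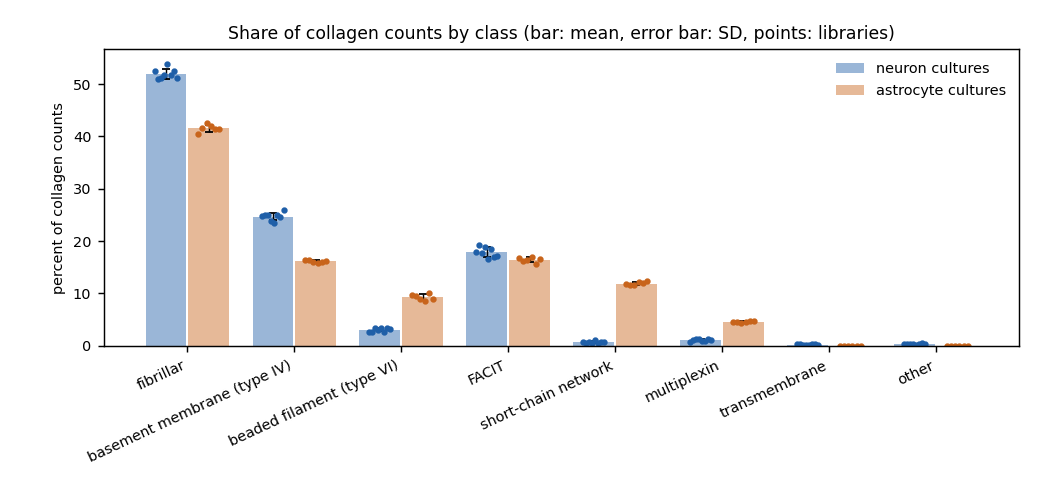
Share of collagen counts by class (vertical axis, percent of the normalized counts of the 40 collagen genes) in 8 neuron and 6 astrocyte libraries, with bars for means, error bars for SD and 1 point per library. Fibrillar and type IV genes stand higher in neurons, and type VI, short-chain and multiplexin genes higher in astrocytes (short-chain 0.728% against 11.9%).

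A few genes carried most of the neuron total. Col5a3, a minor chain of type V fibrils, took 24.1% ± 2.64 of the collagen counts (SD, n = 8), followed by the FACIT gene Col16a1 at 13.1% ± 0.905 and the fibril gene Col11a1 at 12.7% ± 0.631. With the type IV genes Col4a5 (8.96%), Col4a2 (7.94%) and Col4a1 (6.35%) these reached 73.2%. In astrocytes the counts were spread over more genes. Col1a2 and Col1a1, the chains of type I collagen, took 13.3% ± 0.350 and 10.7% ± 0.330 (SD, n = 6), the FACIT gene Col12a1 12.8% ± 0.373 and Col8a2, a short-chain collagen known from the membrane under the corneal endothelium, 10.1% ± 0.258. Col4a5 followed with 9.15%, Col6a2 with 6.24%, Col5a2 with 5.67%, Col18a1 with 4.54% and Col3a1 with 4.08%.

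To set the cultures side by side, each value was expressed per 1000000 of the summed normalized counts of its library (CPM). The neuron and astrocyte tables were normalized separately, so these differences carry no test, and they compare whole cultures in different media. For 26 of the 40 genes every astrocyte library lay above every neuron library. Of the 16068 genes that passed the same limit and were listed in both tables, 30.6% did so. For 8 collagen genes every neuron library lay above every astrocyte library, against 40.7% of those genes. The other 6 overlapped. Among the 26, Col7a1, Col17a1 and Col28a1 had reached a mean of 10 in astrocytes alone. Among the 8, Col9a1 and Col26a1 had done so in neurons alone. The direction of these genes follows in part from that limit. The median log2 ratio of astrocytes to neurons was 2.38 for the collagen genes and -0.11 for all genes. The level in astrocytes was over 10 times that in neurons for 14 collagen genes.

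**Figure D2:**
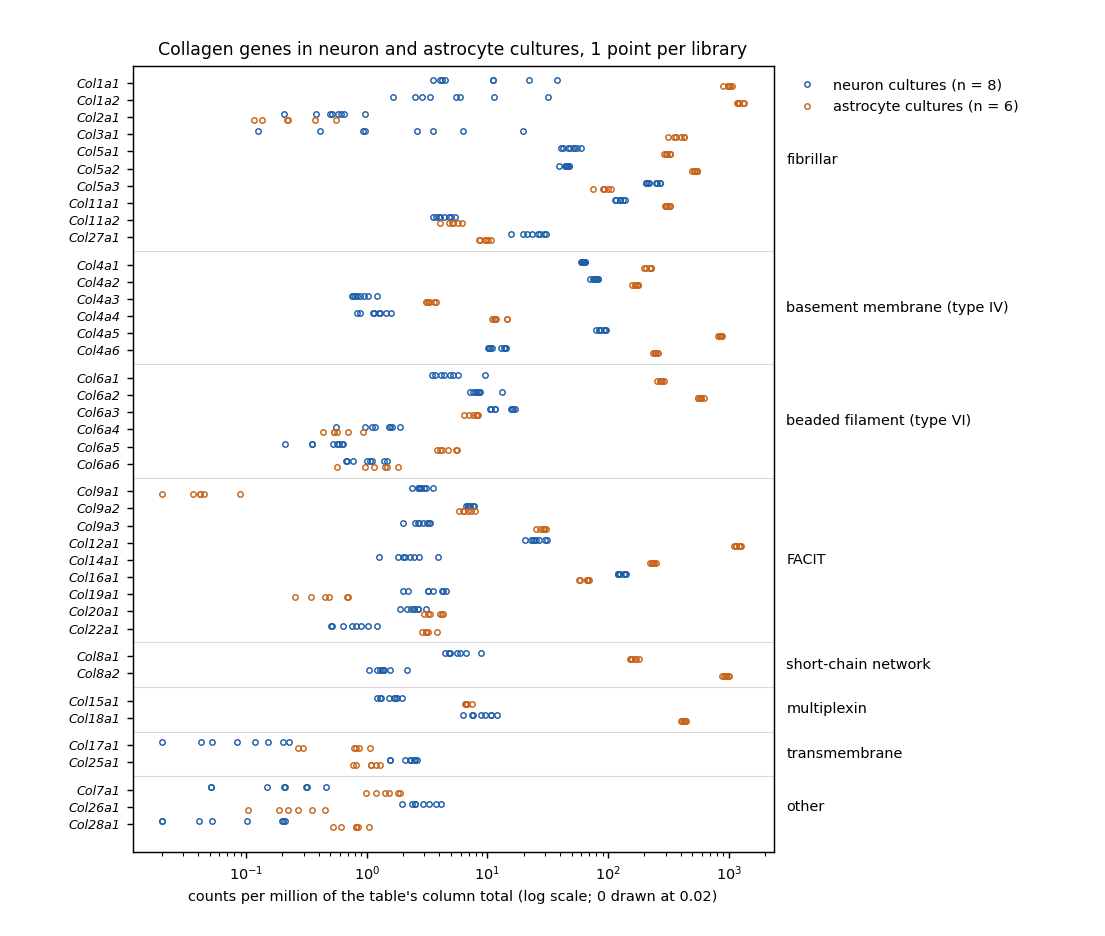
Level of each of the 40 collagen genes (horizontal axis, CPM of the column total, log scale, 0 drawn at the left edge) in 8 neuron libraries (blue) and 6 astrocyte libraries (orange), grouped by class. For 26 genes all astrocyte points lie to the right of all neuron points and for 8 genes the reverse holds, with the widest gap at Col8a2.

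Among fibrillar genes, those of types I and III set the cultures furthest apart. Col1a2 stood at 1245 ± 68.6 CPM in astrocytes (SD, n = 6) and 8.11 ± 10.03 in neurons (SD, n = 8), a ratio of 154. For Col3a1, whose product mixes with type I in extensible tissue, the values were 382 ± 45.2 and 4.34 ± 6.60, and the ratio was 88.0. Col1a1 had a ratio of 80.9, Col5a2 of 11.8 and Col5a1, the partner of Col5a2 in type V fibrils, of 6.30. Col11a1, a chain that seeds thin fibrils, differed by less, with 311 ± 11.4 in astrocytes and 125 ± 7.77 in neurons. Against this order, Col5a3 was higher in neurons, at 237 ± 28.1 CPM compared with 92.5 ± 10.4. Col27a1, a fibrillar collagen of developing cartilage, also stood higher in neurons, at 24.3 ± 5.17 compared with 9.50 ± 0.826. The cartilage genes Col11a2 (5.17 ± 0.725 in astrocytes and 4.34 ± 0.647 in neurons) and Col2a1 (0.272 ± 0.167 and 0.551 ± 0.222) overlapped.

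All 6 type IV genes were higher in every astrocyte library. The ratio was lowest for the ubiquitous chains, 3.49 for Col4a1 and 2.19 for Col4a2, and highest for Col4a6 at 20.3. Col4a5 stood at 854 ± 27.4 CPM in astrocytes (SD, n = 6) and 88.0 ± 5.55 in neurons (SD, n = 8). Col4a3 and Col4a4, whose chains join that of Col4a5 in the kidney filter, were low in both, with 3.36 ± 0.245 and 12.5 ± 1.64 in astrocytes and 0.903 ± 0.156 and 1.20 ± 0.260 in neurons.

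Type VI genes fell into separate patterns. Col6a1 and Col6a2 were 53.6 and 66.8 times as high in astrocytes, at 273 ± 12.8 and 581 ± 26.7 CPM (SD, n = 6). Col6a3, whose chain joins those of Col6a1 and Col6a2 in the classical type VI molecule, went the other way. It stood at 7.59 ± 0.759 in astrocytes and 13.7 ± 2.82 in neurons, with no overlap. Col6a5 was higher in astrocytes (4.64 ± 0.762 compared with 0.482 ± 0.155), and Col6a4 (0.618 ± 0.178 and 1.30 ± 0.423) and Col6a6 (1.23 ± 0.434 and 1.0195 ± 0.301) overlapped.

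Of the FACIT genes, Col14a1 and Col12a1 were 102 and 46.5 times as high in astrocytes, and Col16a1 and Col19a1 were higher in neurons, at 128 ± 8.54 and 3.39 ± 0.944 CPM compared with 65.0 ± 5.28 and 0.487 ± 0.179. The chains of type IX collagen, which coats cartilage fibrils, were split. Col9a3 was 10.1 times as high in astrocytes, Col9a2 overlapped (6.75 ± 0.761 and 7.10 ± 0.382 CPM in neurons), and Col9a1 had 53.0 to 78.2 normalized counts in neuron libraries and 0 to 2.1 in astrocyte libraries. Col22a1, a FACIT collagen of tissue junctions, was higher in astrocytes at 3.20 ± 0.332 compared with 0.798 ± 0.249 CPM, and Col20a1 (3.68 ± 0.567 and 2.46 ± 0.364) overlapped.

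In the smaller classes, Col8a2 showed the largest ratio of the 40 genes. It stood at 946 ± 44.7 CPM in astrocytes (SD, n = 6) and 1.42 ± 0.331 in neurons (SD, n = 8), a ratio of 668, while its partner Col8a1 had a ratio of 28.4. Col18a1, the basement membrane collagen that releases endostatin, had a ratio of 46.4, and Col15a1, its relative, of 4.34. Col25a1, a transmembrane collagen of neurons found in amyloid plaques, was higher in neurons at 2.17 ± 0.417 compared with 1.03 ± 0.202. Col26a1 was also higher in neurons, at 2.92 ± 0.740 compared with 0.265 ± 0.124. Col7a1, the anchoring fibril collagen of skin, stood at 1.47 ± 0.351 in astrocytes and 0.221 ± 0.141 in neurons. Col17a1 (0.683 ± 0.325 and 0.110 ± 0.0799) and Col28a1 (0.778 ± 0.183 and 0.1004 ± 0.0908) were also low in both and higher in astrocytes.

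Many collagen molecules need fixed partners, so the count ratio of partner genes was taken within each library, where library size and transcript length are the same on both sides of a comparison between cultures. Col1a1 over Col1a2 was 1.70 ± 0.350 in neurons (SD, n = 8) and 0.802 ± 0.0325 in astrocytes (SD, n = 6). Col4a1 over Col4a2 was 0.803 ± 0.0556 and 1.28 ± 0.0612. Neither pair overlapped between the cultures. The largest shift was that of Col8a2 over Col8a1, from 0.250 ± 0.0395 in neurons to 5.80 ± 0.197 in astrocytes. Col4a5 over Col4a6 was 7.35 ± 0.736 and 3.47 ± 0.112, Col4a3 over Col4a4 0.779 ± 0.190 and 0.272 ± 0.0279, and Col5a1 over Col5a2 1.10 ± 0.103 and 0.590 ± 0.0224. Each of these pairs was also apart in all libraries, whereas Col6a1 over Col6a2 (0.575 ± 0.102 and 0.470 ± 0.00930) and Col3a1 over Col1a1 (0.242 ± 0.146 and 0.382 ± 0.0322) overlapped. These ratios are descriptions with no test.

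**Figure D3:**
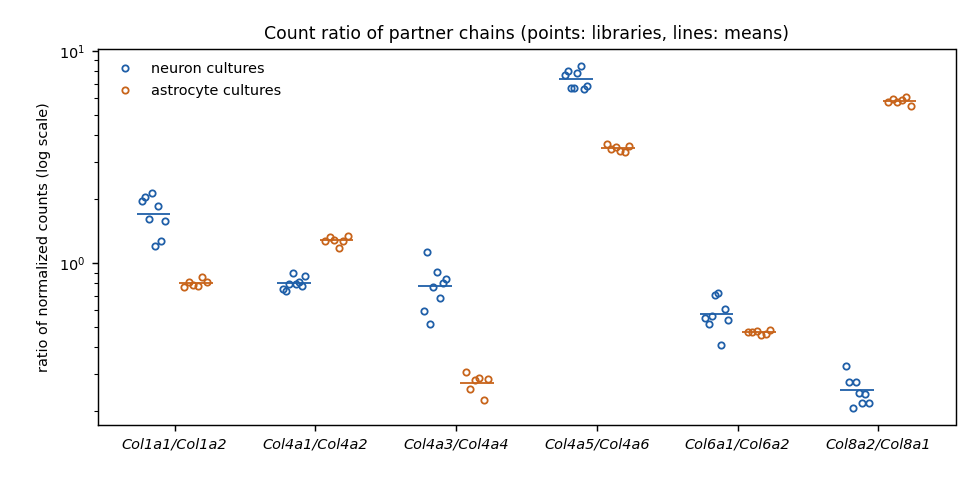
Ratio of normalized counts of partner chain genes (vertical axis, log scale) in 8 neuron libraries (blue) and 6 astrocyte libraries (orange), with lines at the means. The cultures are apart for 5 of the 6 pairs drawn and overlap for Col6a1 over Col6a2, and Col8a2 over Col8a1 moves from 0.250 to 5.80.

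The type IV genes lie in head-to-head pairs, each pair read outward in opposite directions from a shared upstream stretch. In the RefSeq promoter table of the GRCr8 assembly the starts of Col4a1 and Col4a2 on chromosome 16 have 76 bases between them, those of Col4a3 and Col4a4 on chromosome 9 have 412, and those of Col4a5 and Col4a6 on chromosome X have 1414. For Col4a5 and Col4a6 the starts did not both match those of the RefSeq gene annotation, so that distance depends on the starts taken. The authors mapped to the rat genome of an earlier Ensembl release, so these positions are background to the gene names. The whole stretch between Col4a1 and Col4a2 is shown because these genes, read from it in opposite directions, had a count ratio on opposite sides of 1 in the 2 cultures. It is chr16:84885521-84885596, plus strand (the strand of Col4a1), and capitals mark a GC box read on the minus strand.
Col4a1-Col4a2 between starts: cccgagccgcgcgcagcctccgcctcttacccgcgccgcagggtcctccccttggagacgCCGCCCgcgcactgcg

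Upstream stretches of the leading fibrillar gene of each culture are shown next, since one stood higher in astrocytes and the other in neurons. For Col1a2, bases 250 to 131 before its RefSeq start are printed, chr4:33518307-33518426 on the plus strand. For Col5a3, the 120 bases before its start are printed, chr8:27625949-27626068 on the minus strand, both in GRCr8 and read 5′ to 3′ in the direction of the gene. Capitals mark the CCAAT box, the GC box GGGCGG and the TATA box TATAAA on either strand, none of which overlap.
Col1a2 upstream: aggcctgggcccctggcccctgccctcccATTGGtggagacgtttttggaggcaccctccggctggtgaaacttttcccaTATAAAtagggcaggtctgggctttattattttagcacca
Col5a3 upstream: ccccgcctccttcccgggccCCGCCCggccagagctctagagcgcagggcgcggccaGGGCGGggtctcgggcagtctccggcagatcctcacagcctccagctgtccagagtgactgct

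The Col1a2 stretch holds a TATA box on the plus strand and a CCAAT box on the minus strand. Both lie more than 131 bases before its RefSeq start. The Col5a3 stretch, next to its start, holds GC boxes on both strands. These are different windows and do not compare the genes. Over the same 250 bases before the start, Col1a2 had 1 CCAAT, 0 GGGCGG and 1 TATAAA. Col5a3 had 1 CCAAT, 3 GGGCGG and 0 TATAAA. Of the collagen genes, 31 had a promoter of 300 bases in the table. The 250 bases before the start were searched, with 1 promoter for each collagen gene and every entry kept for all promoters. Counted over both strands, CCAAT was found in 10 of these 31 and in 34.0% of all 33469 promoters, GGGCGG in 17 of 31 and in 30.5%, and TATAAA in 2 of 31 (Col17a1 and Col1a2) and in 12.9%. A match of letters in these windows is a description and says nothing about binding.

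Whether Allo moved collagen genes was asked in each culture alone, with limma on log2(normalized count + 1), so that fold changes of low genes are understated. In neurons, Allo against Veh gave 0 of 37 collagen genes at an unadjusted p under 0.05, where 5.69% of all 15314 genes tested passed, and 0 after Benjamini-Hochberg adjustment over all genes, where 0.0261% passed. For 0 of the 37 were the groups free of overlap, against 3.95% of all genes. The median log2 fold change was 0.029 for the collagen genes and -0.0015 for all genes tested, with 21 above 0 and 16 below.

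The nearest to a call in neurons were FACIT genes. Col12a1, which links fibrils to the surrounding matrix, had 528, 555, 668 and 700.3 normalized counts in Veh libraries 1-1, 1-2, 2-1 and 2-2 and 589, 450.2, 506 and 541 in the Allo libraries of the same numbers. The Allo libraries were the lower ones for 3 of the 4 numbers, and the groups overlapped. Its log2 fold change was -0.23 (SE 0.11, limma Benjamini-Hochberg adjusted p = 0.88, exact permutation p = 0.171, limma p = 0.0546 before adjustment). Col19a1, a rare FACIT collagen made by some interneurons, had 93.2, 70.8, 100.4 and 79.0 in Veh and 43.6, 48.1, 94.6 and 71.5 in Allo. All Allo values were below the Veh value of the same number, yet the groups overlapped, and the log2 fold change was -0.46 (SE 0.23, limma Benjamini-Hochberg adjusted p = 0.886, exact permutation p = 0.2).

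For the leading genes of each class in neurons the interval of the change included 0, and its width differed between genes. Col5a3 had a log2 fold change of -0.014 with a 95% interval of -0.25 to 0.22, Col11a1 0.051 (-0.084 to 0.19), Col16a1 -0.050 (-0.18 to 0.079) and Col4a5 -0.0098 (-0.15 to 0.13). The interval of Col4a2 ran from -0.074 to 0.13 and that of Col6a3 from -0.39 to 0.44. Among the short-chain, multiplexin and transmembrane genes, Col8a1 ran from -0.18 to 0.68, Col18a1 from -0.51 to 0.36 and Col25a1 from -0.12 to 0.71. These intervals cover only the spread between libraries. They come from a fit that ignored the first part of the library number, by which many genes differed, as described below. That difference counts as spread here and can widen them. With the first part as a block, the unadjusted limma p was lower for each gene named here, but stayed over 0.05. For Col5a3 it was 0.669 with the block and 0.899 without. Changes inside the intervals could thus not be told from 0 in the fit without a block, which does not settle whether a blocked fit could tell them.

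Type I and III genes were far less certain in neurons, because their libraries were far apart. Col1a1 had 483, 247, 90.6 and 79.0 normalized counts in Veh libraries 1-1, 1-2, 2-1 and 2-2, and 839.7, 243, 93.5 and 100.5 in the Allo libraries of those numbers. Col1a2 had 247, 120.5, 56.1 and 37.1 in Veh and 701, 131, 74.1 and 63.8 in Allo. Col3a1 had 137, 57.4, 9.2 and 2.8 in Veh and 438, 78.3, 20.8 and 21.6 in Allo. Allo library 1-1 was the highest of the 8 for all of them, Veh library 1-1 came second, and the 4 libraries whose number begins with 2 were the lowest. The log2 fold changes were 0.29 for Col1a1 (95% interval -1.33 to 1.91), 0.70 for Col1a2 (-0.98 to 2.37) and 1.44 for Col3a1 (-1.19 to 4.08). Without Allo library 1-1 they were -0.37, -0.06 and 0.52. In that library Acta2, a smooth muscle and myofibroblast actin, stood at 131 and the stromal factor Foxd1 at 22.6, against 12.5 to 59.7 and 0 to 5.3 in the other 7, whereas the fibroblast proteoglycans Dcn (209.5, others 93.9 to 265.5) and Lum (17.6, others 4.5 to 17.5) were within or next to the range of the others. Acta2 is 1 of 8 listed pericyte and smooth muscle markers. The sum of that list ran from 12883 to 14257 in the libraries numbered 1 and from 14059 to 16823 in those numbered 2. The part of these marker genes in the collagen values was not tested.

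**Figure D4:**
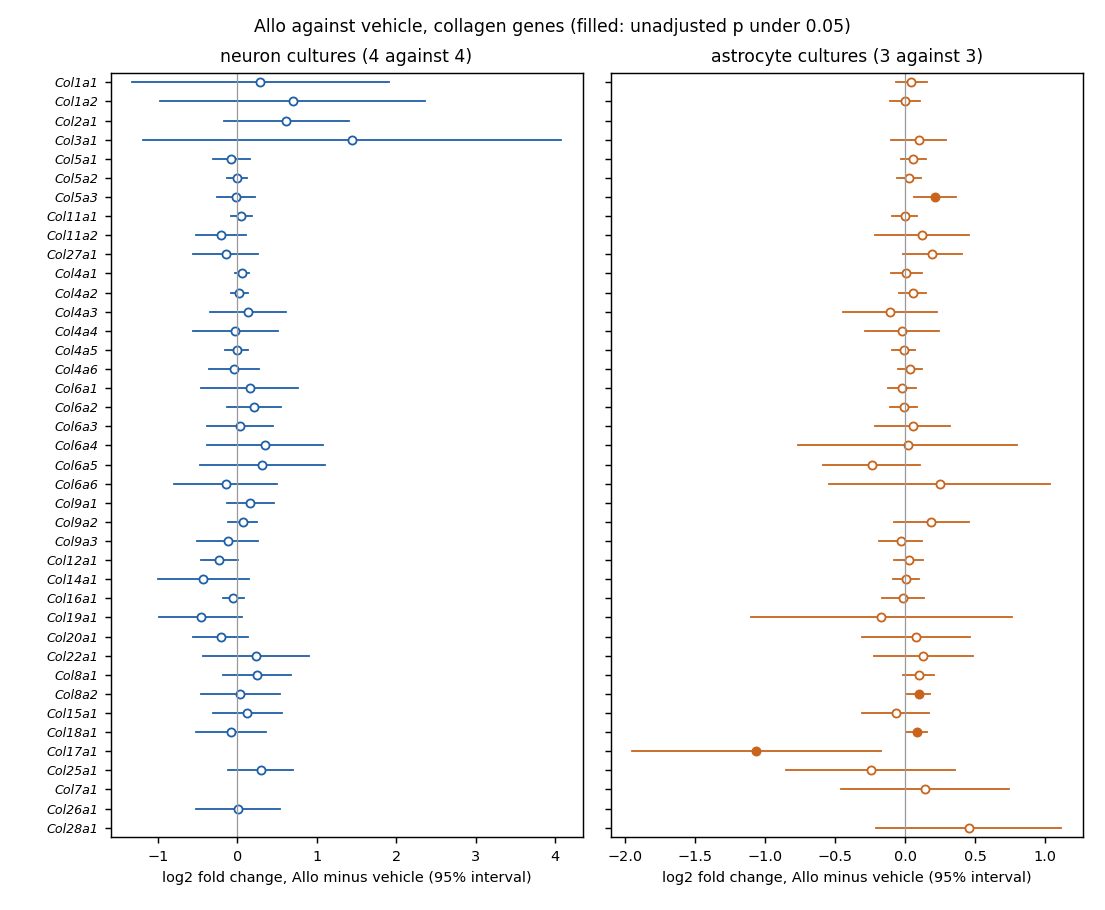
Log2 fold change of Allo minus vehicle (horizontal axis) with its 95% interval for collagen genes in neuron cultures (left, 4 against 4 libraries) and astrocyte cultures (right, 3 against 3), on separate horizontal scales. Filled points have an unadjusted p under 0.05, which holds for 0 genes in neurons and for Col5a3, Col8a2, Col18a1 and Col17a1 in astrocytes, and the widest neuron interval is that of Col3a1.

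The neuron libraries deviated from their group means together when they shared the first part of their number, and less distinctly by the whole number. Fits with the number as a replicate block are therefore given beside this result. With the first part of the number as the block, 3 of 37 collagen genes had an unadjusted p under 0.05 (11% of all genes) and 0 passed adjustment (0.679%). With the whole number as the block, 5 of 37 did (10.7% of all genes) and Col3a1 alone passed adjustment (0.607% of all genes), with a log2 fold change of 1.44 and an adjusted p of 0.0409 by limma with Benjamini-Hochberg adjustment. Col3a1 was higher in Allo than in Veh for 4 of 4 numbers. The other genes under 0.05 in this fit were Col1a2 and Col1a1, both higher in Allo (adjusted p = 0.134 and 0.414 by limma), and Col12a1 and Col19a1, both lower (adjusted p = 0.314 and 0.345 by limma). The call of Col3a1 was thus made only with the whole number as the block, a pairing that the labels do not give. Within number 1 alone its log2 fold change was 1.06 (adjusted p = 0.718 by limma) and within number 2 alone, on 2.8 to 21.6 normalized counts, 1.83 (adjusted p = 0.114 by limma).

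In astrocytes, Allo against Veh gave 4 of 37 collagen genes at an unadjusted p under 0.05, which is 10.8%, where 7.01% of all 15380 genes tested passed. Of these, 3 collagen genes were higher with Allo (3.72% of all genes) and 1 lower (3.29%). Over all genes 572 were higher and 506 lower, and with upper-quartile scaling 427 and 668, a setting that left 2 collagen genes under 0.05. After Benjamini-Hochberg adjustment 0 passed, where 0.0065% of all genes did. The groups were free of overlap for Col5a3, Col18a1 and Col27a1, all higher with Allo, 3 of 37, against 12.5% of all genes (6.42% higher), and the smallest exact permutation p that 3 against 3 libraries can give is 0.1. The median log2 fold change was 0.027 for the collagen genes and 0.0014 for all genes tested, with 23 above 0 and 14 below.

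Col5a3 showed the lowest p. It had 2151, 1796 and 2201 normalized counts in Veh libraries 1 to 3 and 2385, 2514 and 2203 in Allo libraries 1 to 3. The lowest Allo library and the highest Veh library were next to each other. The log2 fold change was 0.21 (SE 0.070, limma Benjamini-Hochberg adjusted p = 0.529, exact permutation p = 0.1), and without Veh library 2 it was 0.12 and no longer under 0.05. Col27a1 had 205, 204 and 226 in Veh and 253, 240 and 233 in Allo, with a log2 fold change of 0.19 (SE 0.097, limma Benjamini-Hochberg adjusted p = 0.737, exact permutation p = 0.1).

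Both short-chain genes and Col18a1 had slightly higher values with Allo. Col8a2 had 20969, 21743 and 22862 normalized counts in Veh and 23801, 22676 and 23586 in Allo, overlapping by 1 library. Its log2 fold change was 0.096 (SE 0.039, limma Benjamini-Hochberg adjusted p = 0.674, exact permutation p = 0.2). Col8a1 had a log2 fold change of 0.095 (SE 0.051, limma Benjamini-Hochberg adjusted p = 0.77, exact permutation p = 0.2). As a share of the collagen counts the short-chain class ran from 11.5% to 11.7% in Veh and from 12.0% to 12.3% in Allo, with no overlap. The other 7 classes overlapped between the groups, and 3 against 3 libraries cannot give an exact permutation p below 0.1. Col18a1 had 9527, 9761 and 10194 in Veh and 10222, 10411 and 10531 in Allo, apart by a small gap. Its log2 fold change was 0.081 (SE 0.035, limma Benjamini-Hochberg adjusted p = 0.696, exact permutation p = 0.1). For Col8a2 the unadjusted p rose over 0.05 without Veh library 1 or 2 or Allo library 1 or 3, and for Col18a1 without Veh library 1 or 2 or Allo library 2 or 3.

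Col17a1, a transmembrane collagen of epithelial hemidesmosomes, was the 1 gene under 0.05 in the other direction. It had 25.3, 20.7 and 18.7 normalized counts in Veh and 6.5, 19.5 and 7.1 in Allo, so that 2 Allo libraries were low and 1 lay within the Veh range. The log2 fold change was -1.06 (SE 0.41, limma Benjamini-Hochberg adjusted p = 0.654, exact permutation p = 0.2), on 25.3 normalized counts or fewer, and p rose over 0.05 without Veh library 1, Allo library 1 or Allo library 3.

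For the following abundant collagen genes of the astrocyte cultures the interval was narrow and included 0, but it covers only the spread between libraries. Col8a2, also abundant, had a 95% interval above 0 (0.013 to 0.18) and did not pass adjustment. Col1a2 had a log2 fold change of -0.0021 with a 95% interval of -0.11 to 0.11, Col1a1 0.042 (-0.069 to 0.15), Col12a1 0.024 (-0.081 to 0.13) and Col4a5 -0.012 (-0.096 to 0.072). Col6a2 ran from -0.11 to 0.087, Col14a1 from -0.087 to 0.099 and Col4a6 from -0.053 to 0.12. The low genes Col25a1 (-0.85 to 0.36), Col7a1 (-0.46 to 0.74) and Col28a1 (-0.21 to 1.12) were left wide. Of the marker lists in astrocyte libraries, the ependymal and choroid plexus sum ran from 1332 to 1449 normalized counts in Veh and from 1177 to 1280.0 in Allo, with no overlap, and the astrocyte, mesenchymal and pericyte sums overlapped between the groups. Single markers under an unadjusted p of 0.05 by limma were all lower with Allo, where 3.29% of all genes were. They were 2 of 6 astrocyte, 1 of 6 mesenchymal, 1 of 7 pericyte, 1 of 3 neuron, 1 of 6 microglia and 1 of 3 ependymal markers. 0 passed adjustment. The part of these cells was not tested.

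Genes that make, process, bind and break down collagen gave little more with Allo. In neurons 0 of 18 genes of hydroxylation, folding and secretion had an unadjusted p under 0.05, 1 of 12 of processing and cross-linking, 1 of 8 receptors, 2 of 9 of breakdown and 0 of 14 matrix partners, where 5.69% of all genes did, and 0 of any list passed adjustment. Those under 0.05 were the procollagen peptidase gene Adamts2 (log2 fold change 0.55, SE 0.18, limma, Benjamini-Hochberg adjusted p = 0.693), the integrin chain Itga11 (0.73), the protease inhibitor Timp2 (0.087) and the protease Mmp16 (0.14). In astrocytes 1 of 18 genes of hydroxylation was under 0.05, the prolyl hydroxylase chain P4ha2 (log2 fold change 0.17), with 2 of 13 of processing, the cross-linking enzymes Loxl4 (0.19) and Loxl1 (0.11), where 7.01% of all genes did. All of these were higher with Allo. Of the receptors, breakdown genes and partners 0 of 8, 0 of 11 and 0 of 14 passed, and 0 genes of any list passed adjustment. The collagen chaperone Serpinh1 stood at 6645 ± 831 normalized counts in neurons (SD, n = 8) and 21112 ± 842 in astrocytes (SD, n = 6), with log2 fold changes of -0.026 and 0.079 (adjusted p = 0.998 and 0.712 by limma).

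Collagen genes also differed between neuron libraries by the first part of the number in their labels, 1 or 2, whose meaning the labels do not give. Each part holds 2 Veh and 2 Allo libraries, so this was fitted with the treatment as a covariate. If a part stands for 1 culture or preparation, each side holds only 1 such unit. The p-values here then measure the spread between libraries within a unit and not between units. Of 37 collagen genes, 15 (40.5%) had an unadjusted p under 0.05, where 29.3% of all genes did, and 12 (32.4%) passed Benjamini-Hochberg adjustment, where 17.2% of all genes did. Of these 12, 7 were higher in the libraries numbered 2 (9.61% of all genes) and 5 lower (7.61%). For the same 12 genes the libraries did not overlap, against 19.6% of all genes, and each gave the smallest exact permutation p that 4 against 4 can reach, 0.0286.

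All genes that fell were fibrillar. Col3a1 went from 178 ± 177 normalized counts in the libraries numbered 1 to 13.6 ± 9.15 in those numbered 2 (SD, n = 4 each). Its log2 fold change was -3.46 (SE 0.45, limma, Benjamini-Hochberg adjusted p = 7.1e-05). Col1a1 went from 453 ± 281 to 90.9 ± 8.93, with a log2 fold change of -2.11 (adjusted p = 8.16e-05 by limma), and Col1a2 from 299.98 ± 273 to 57.8 ± 15.6, with -2.01 (adjusted p = 0.00129 by limma). The spread within number 1 was as wide as its mean for Col3a1 and nearly so for Col1a2, and Allo library 1-1 was the highest throughout. Leaving out each library in turn, the log2 fold changes ran from -4.03 to -3.04, from -2.45 to -1.74 and from -2.47 to -1.51. Col27a1 and Col5a1 fell by less, with log2 fold changes of -0.50 and -0.28 (adjusted p = 0.00118 and 0.00214 by limma).

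**Figure D5:**
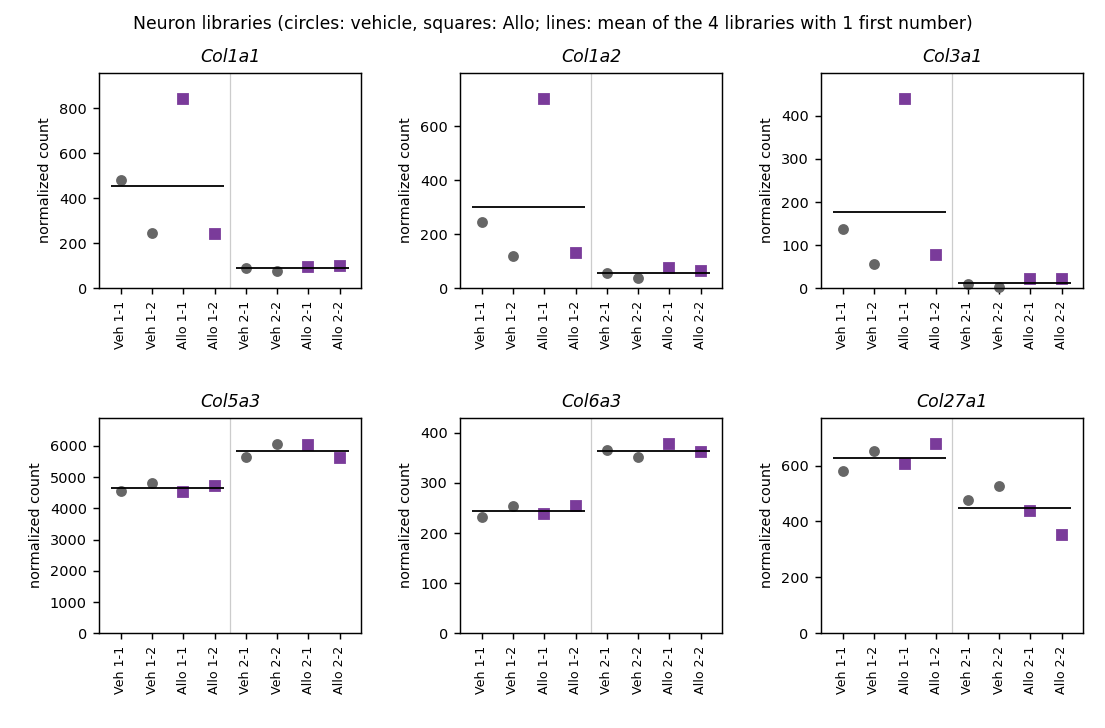
Normalized counts (vertical axis, linear from 0) of 6 fibrillar and type VI collagen genes in the 8 neuron libraries, with circles for vehicle, squares for Allo and lines at the mean of the 4 libraries that share the first part of their number. Col1a1, Col1a2, Col3a1 and Col27a1 are lower, and Col5a3 and Col6a3 higher, in the libraries numbered 2, and Allo 1-1 stands at 839.7 for Col1a1.

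Col5a3, the leading collagen gene of the neuron cultures, rose. It had 4553, 4828, 4539 and 4704 normalized counts in Veh 1-1, Veh 1-2, Allo 1-1 and Allo 1-2, and 5644, 6053, 6026 and 5615 in the libraries numbered 2 in the same order. The 2 sets were apart and each was narrow, and the log2 fold change was 0.33 (SE 0.032, limma, Benjamini-Hochberg adjusted p = 4.42e-06). Col6a3 had 232, 255, 238 and 253 against 365, 351, 377 and 361, with a log2 fold change of 0.57 (SE 0.066, limma, Benjamini-Hochberg adjusted p = 2.15e-05). Of the type IV genes, Col4a6 rose by 0.42 and Col4a5 by 0.16 on the log2 scale (adjusted p = 0.000549 and 0.0093 by limma), while Col4a1 to Col4a4 did not pass. Col18a1 (0.53), Col26a1 (0.59) and Col11a1 (0.14) also rose, with adjusted p of 0.00289, 0.0154 and 0.0229 by limma. The FACIT genes Col19a1, Col14a1 and Col12a1 were under an unadjusted p of 0.05 and did not pass adjustment (adjusted p = 0.0762, 0.119 and 0.156 by limma).

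Genes around collagen were read against the 17.2% of all genes that passed adjustment between the first numbers. The share that passed was 22.2% of 18 genes of hydroxylation, folding and secretion and 16.7% of 12 processing genes, both near that background, 37.5% of 8 receptors, 44.4% of 9 breakdown genes and 57.1% of 14 matrix partners. Of the 18 genes of hydroxylation, folding and secretion, 3 rose and 1 fell after adjustment, the rises being Serpinh1 (0.32), the prolyl hydroxylase chain P4ha3 (0.68) and the chaperone Fkbp10 (0.17) and the fall Plod2 (-0.23), a lysyl hydroxylase. The receptors Ddr2 (0.59) and Ddr1 (0.26), kinases that bind collagen, rose and Adgrg1 (-0.094), a receptor of Col3a1's product, fell. Of the breakdown genes Timp1 (0.55) rose and Timp4 (-0.56), the gelatinase Mmp2 (-0.48) and the collagen-cutting cathepsin Ctsk (-1.59) fell. Of 14 matrix partners 4 rose and 4 fell, among them fibronectin, Fn1 (0.52), and nidogen, Nid1 (-0.25), which ties type IV collagen to laminin. Of the 12 processing genes Loxl4 (0.97) rose and Pxdn (-0.34), which cross-links type IV collagen, fell. All these are log2 fold changes with an adjusted p under 0.05 by limma.

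Sums of 4 of the 8 cell type marker lists were apart between the first numbers. The 6 astrocyte markers summed to 170389 to 181470 normalized counts in the libraries numbered 1 and 211466 to 231300 in those numbered 2, and the oligodendrocyte markers to 39822 to 42686 and 35736 to 36397. The 11 mesenchymal markers summed to 1397 to 1499.9 and 1429 to 1553, which overlap. The endothelial markers, 2 of 7 at a mean of at least 10, summed to 46.1 to 63.5 and 68.8 to 129, and the ependymal and choroid plexus markers, 3 of 5, to 197 to 266 and 130 to 192, both without overlap. The neuron, pericyte and microglia sums overlapped. Of the 8 mesenchymal markers tested, Dcn (-0.85) and Foxc1 (-0.41) fell and Pdgfrb (0.29) and Prrx1 (0.28) rose after adjustment, as log2 fold changes by limma. These are 50% of the 8, where 17.2% of all genes passed. The part these cells play in the collagen differences was not tested, and the first part of the number cannot be told apart from whatever culture or preparation it stands for.

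Within the first numbers taken alone, each with 2 Veh and 2 Allo libraries, Allo was also compared with Veh. In number 1, 4 of 37 collagen genes had an unadjusted p under 0.05 (7.97% of all genes) and 0 passed adjustment (0.222%). In number 2, 8 of 37 did (12.5% of all genes), of which Col12a1 passed Benjamini-Hochberg adjustment (1.74% of all genes; log2 fold change -0.39, adjusted p = 0.0149 by limma). For Col12a1 the change was -0.07 in number 1. The difference between the numbers was tested as an interaction, where 9 of 37 collagen genes (9.53% of all genes) had an unadjusted p under 0.05 and 0 passed adjustment (0.0784% of all genes), the lowest adjusted p being 0.352 for Col5a1 by limma. The Allo effect on Col12a1 was thus not shown to differ between the numbers after adjustment (interaction, adjusted p = 0.506 by limma).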

How the data were processed

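RNA-seq values came from 8 neuron and 6 astrocyte libraries, grouped by the cell type, treatment and number in their titles. The authors prepared stranded poly(A) libraries, quantified transcripts with Salmon 0.14 against Ensembl rat annotation and normalized gene counts with DESeq2 1.18.1 (versions from the submitters' processing notes). They deposited, for each cell type, a table of normalized counts per gene, used here as a signal, and a table of variance-stabilized (VST) values close to a log2 scale. No column was left unused beyond these (0). The values do not step in whole reads throughout, since 73.9% to 96.4% of low values were whole within a tolerance of 0.15 reads, so no count model was run. From the same step, libraries held about 19500000 to 24900000 reads on genes in neurons and 22000000 to 28500000 in astrocytes. The highest of these estimates, that of Astrocyte Allo library 3, had the poorest fit, with 73.9% of low values whole. Depth limits the genes near 10 counts, and intervals cover only the spread between libraries. No pair of libraries held identical values.

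A pseudocount of 1 was added before taking log2. Genes with a mean of at least 10 in a table were tested with limma 3.58.1 under R 4.3.3, using linear models with a mean-variance trend and two-sided p-values adjusted by Benjamini and Hochberg over all genes tested. Exact permutation tests were two-sided. The script was tested on simulated data. Every collagen symbol with a mean of at least 10 in either table was named with its level. Test values were given for those under an unadjusted p of 0.05, those without overlap and the most abundant of each class, and from each pathway list for genes under 0.05 (at most 3 per direction) and abundant ones. The genes, classes and lists were chosen with earlier results of these data known.

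After removal of group means, neuron Veh and Allo libraries of the same number correlated over genes at 0.229 to 0.296, those sharing the first part alone at 0.185 to 0.236, and those differing in it at -0.319 to -0.150. The number was therefore treated as a pairing in additional fits, taken from these correlations and not from the labels. The main fits of Allo against Veh had no block. The first part set the libraries apart, but the whole number did so less clearly. Veh 1-2 correlated at 0.236 with Allo 1-1 and at 0.229 with Allo 1-2. Among astrocytes the correlations of the same number were -0.007 to 0.024. In the deposited neuron VST table the means of the 2 first numbers were equal for all 18239 genes within 1e-06, so that table could not serve the comparison of first numbers. Levels per transcript length had been planned, but no lengths were used here and shares are of counts. Alternatives were other pseudocounts, filters, scalings and fits, VST values, replicate blocks and leaving out each library.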

Additional observations from a re-analysis of the deposited data

Results flagged for a closer look

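Among 74 sets of 4 neuron libraries, 1 for each collagen gene and treatment, 4 held a library far from the other 3. Each is given as the gap to the nearest library over the whole range of the group, above Dixon's 95% limit for 4 samples, and chance gives about 1 in 20 groups. Neuron Allo 1-1 was the high library for Col1a2 (ratio 0.894, 701 normalized counts against 63.8 to 131), for Col3a1 (0.862, 438 against 20.8 to 78.3) and for Col6a2 (0.85, 290 against 171 to 188). Neuron Allo 2-2 was the high library for Col11a1 (0.87, 2954 against 2763 to 2788).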

How the results depend on the processing

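For Allo in neurons, 0 of 37 collagen genes had an unadjusted p under 0.05. The count was 3 on VST values, 3 on VST values with the replicate block by first number, 1 with no filter, 1 after quantile normalization, 3 with the replicate block by first number, 5 with the block by whole number, 4 within first number 1 alone, 8 within first number 2 alone and 0 to 3 when each library was left out. After adjustment, 1 gene passed instead of 0 with the pairing by whole number (Col3a1) and 1 within first number 2 alone (Col12a1). The VST fit without a block counts no loss of freedom for the first-number difference that the table lacks. VST values with the block and the 2 first numbers alone were chosen after seeing the data. For Allo in astrocytes, 4 genes under 0.05 became 2 with upper-quartile scaling and 1 to 9 when each library was left out, with 9 without Veh 3, 1 without Veh 1, Veh 2 or Allo 3, and 2 without Allo 1. The astrocyte block by number, where libraries shared only a number, gave 5. Over all genes, 872 with an unadjusted p under 0.05 for Allo in neurons became 2204 on VST values, 1694 on VST values with the block, 1684 and 1634 with the blocks, and 1918 in first number 2 alone, and for first numbers 2636 after adjustment became 1722 without a trend and 1069 in vehicle libraries alone. The cause of these shifts was not tested. The counts of collagen genes for the first numbers, in both directions together, stayed within 1.5 times in every alternative run (9 to 13 after adjustment), although the 5 lower ones became 3 in vehicle libraries alone, and no class share moved by over 1 SD. Of the 15 genes called there, 9 kept p under 0.05 in all alternatives, and 0 of 4 did so for Allo in astrocytes. Shares per transcript length, their coding-length alternative and VST values for the first numbers were not run. Genes near 10 counts, such as Col17a1 and Col2a1, are limited by depth.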
